A study of Caenorhabditis elegans with 2 samples.

Results

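Of the 5982 peaks in the optimal CEBP-1 list, 1242 (20.8%, Wilson 95% interval 19.8 to 21.8%) had a summit in the promoter of exactly 1 protein-coding gene, more than 150 and up to 1000 bp upstream of its annotated 5′ end. Promoters were taken as the stretch between 1000 bp before and 200 bp after that end, in the WBcel235 assembly (ce11) with Ensembl genes. These upstream promoter peaks belonged to 1160 genes, 5.81% of the 19973 protein-coding genes on the 6 nuclear chromosomes. Within the optimal list they were chosen by position, with earlier results of these data known. Signal and sequence did not enter that choice, so both are open to description. The rule of exactly 1 gene bears on which genes can be included. Chromatin immunoprecipitation with sequencing (ChIP-seq) had been done on whole, mixed-sex young adults collected at 63 hours from the starved L1 stage used to synchronize them. All animals were of strain OP563, which carries the unc-119(tm4063) mutation on chromosome III and the transgene wgIs563, a stably expressed CEBP-1 with GFP-FLAG at its C terminus. The chromatin was precipitated with an antibody to GFP by one label, while another label gives CEBP-1 as the antibody. The series holds 1 group of 2 biological replicates, numbered 3 and 7, so there is no comparison between conditions, and no test over peaks was made, since peaks of 1 list are not replicates. Animals without the transgene were not analysed here. Sample depth is unknown, as the files hold peaks without counts, and all intervals below cover counting error over peaks, genes or sites only. In whole animals, occupancy in a few cells and weaker occupancy in many cannot be told apart.

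CEBP-1 is a basic leucine zipper (bZIP) factor of the C/EBP family. Such factors bind short, nearly palindromic DNA sites as dimers, and in C. elegans CEBP-1 is known for its part in axon regrowth downstream of the kinase DLK-1 and in stress and immune responses. Worm promoters are compact, and for many genes the annotated 5′ end is not where transcription starts: the pre-mRNA is cut at a splice acceptor and joined to a short spliced leader, a step called trans-splicing.

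Signal is given here relative to the list. For each peak the strongest summit within 100 bp in a replicate's own list was taken, and the authors' signal value there was divided by its median over the optimal peaks, 203.6 in replicate 3 and 111.7 in replicate 7. A relative signal of 1 is therefore a typical peak of that replicate. Means are given ± SD over n = 2 replicates.

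The windows reaching 50 bp to each side of the summits show what the strongest upstream peaks looked like. Each is written on the strand of its gene, 5′ to 3′, with the build ce11. The first set holds strong peaks with the word TTGCGAAA near the summit, and capitals mark that word or its reverse, TTTCGCAA. The windows lie 567 bp upstream of ftt-2, 660 bp upstream of tbb-2, 419 bp upstream of Y37B11A.3, 240 bp upstream of gei-4, 365 bp upstream of snb-1 and 442 bp upstream of rpl-35.
ftt-2, chrX:11605936-11606036, minus strand: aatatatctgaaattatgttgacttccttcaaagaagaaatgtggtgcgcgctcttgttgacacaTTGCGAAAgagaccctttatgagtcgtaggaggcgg
tbb-2, chrIII:4018237-4018337, minus strand: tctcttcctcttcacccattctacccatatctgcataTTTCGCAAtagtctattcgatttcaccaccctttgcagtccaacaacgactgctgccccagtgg
Y37B11A.3, chrIII:5785692-5785792, minus strand: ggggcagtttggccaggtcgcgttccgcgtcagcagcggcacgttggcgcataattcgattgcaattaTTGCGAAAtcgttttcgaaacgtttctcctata
gei-4, chrIII:354990-355090, minus strand: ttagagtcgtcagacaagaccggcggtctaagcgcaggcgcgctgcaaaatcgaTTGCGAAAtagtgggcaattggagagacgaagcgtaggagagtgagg
snb-1, chrV:6656816-6656916, minus strand: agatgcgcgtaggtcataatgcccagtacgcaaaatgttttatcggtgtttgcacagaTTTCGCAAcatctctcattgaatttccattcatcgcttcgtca
rpl-35, chrIII:7854642-7854742, plus strand: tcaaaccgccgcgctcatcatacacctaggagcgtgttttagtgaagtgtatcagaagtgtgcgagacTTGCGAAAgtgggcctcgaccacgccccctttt
The second set is shown because it has none of the words searched: the strongest peak of all, 267 bp upstream of nipi-3, and a strong ribosomal protein gene peak, 277 bp upstream of rpl-3.
nipi-3, chrX:15607652-15607752, plus strand: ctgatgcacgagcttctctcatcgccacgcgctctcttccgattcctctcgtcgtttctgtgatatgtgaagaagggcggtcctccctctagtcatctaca
rpl-3, chrIII:3867527-3867627, plus strand: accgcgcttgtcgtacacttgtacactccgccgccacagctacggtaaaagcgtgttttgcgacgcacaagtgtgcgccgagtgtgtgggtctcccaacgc
The third set holds windows with a textbook bZIP site, in capitals with any other word searched. The C/EBP sites TTACGCAA, TTGCGCAA or TTGCGTAA are found upstream of eef-1A.2, mrp-2, F10E7.11, pdhk-2 and saps-1, and the C/EBP-ATF composite site TGATGCAA upstream of epg-7 and acly-1. C32D5.8 has the symmetrical site TTACGTAA and the cyclic AMP response element TGACGTCA.
eef-1A.2, chrX:7823226-7823326, plus strand: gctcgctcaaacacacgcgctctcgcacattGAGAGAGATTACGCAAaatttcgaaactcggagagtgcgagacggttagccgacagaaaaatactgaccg
mrp-2, chrX:573437-573537, minus strand: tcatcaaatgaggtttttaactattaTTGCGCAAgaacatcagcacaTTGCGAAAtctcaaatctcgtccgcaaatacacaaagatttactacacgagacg
F10E7.11, chrII:7123231-7123331, minus strand: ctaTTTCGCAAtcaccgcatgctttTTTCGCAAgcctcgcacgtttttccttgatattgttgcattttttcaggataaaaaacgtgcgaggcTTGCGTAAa
C32D5.8, chrII:6346813-6346913, minus strand: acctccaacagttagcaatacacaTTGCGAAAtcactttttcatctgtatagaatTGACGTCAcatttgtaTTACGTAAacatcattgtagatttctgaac
pdhk-2, chrIII:8741584-8741684, minus strand: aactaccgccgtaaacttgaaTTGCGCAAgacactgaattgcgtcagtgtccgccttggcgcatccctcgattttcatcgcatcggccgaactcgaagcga
saps-1, chrII:11297384-11297484, plus strand: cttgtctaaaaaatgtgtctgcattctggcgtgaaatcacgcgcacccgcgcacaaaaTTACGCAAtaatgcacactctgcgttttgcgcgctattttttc
epg-7, chrX:7334447-7334547, plus strand: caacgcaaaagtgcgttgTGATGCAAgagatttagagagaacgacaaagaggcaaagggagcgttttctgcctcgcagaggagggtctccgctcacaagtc
acly-1, chrX:1479290-1479390, plus strand: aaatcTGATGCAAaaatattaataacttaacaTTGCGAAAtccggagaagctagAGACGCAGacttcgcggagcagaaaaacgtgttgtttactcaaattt
In the eef-1A.2 window the capitals are a GAGA repeat that runs straight into TTACGCAA. The fourth set shows the word AGACGCAG (reverse CTGCGTCT), with TTGCGAAA and a GAGA repeat upstream of dyci-1, alone upstream of mak-2, and beside TTACGCAA upstream of umps-1. In the umps-1 window AGACGCAG overlaps a GAGA repeat, and both read on the strand opposite the one shown.
dyci-1, chrIV:6785970-6786070, minus strand: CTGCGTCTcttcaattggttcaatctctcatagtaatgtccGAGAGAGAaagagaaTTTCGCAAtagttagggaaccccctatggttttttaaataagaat
mak-2, chrIV:884863-884963, plus strand: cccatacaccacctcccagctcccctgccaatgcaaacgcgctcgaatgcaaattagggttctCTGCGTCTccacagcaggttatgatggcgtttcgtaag
umps-1, chrIII:10357932-10358032, minus strand: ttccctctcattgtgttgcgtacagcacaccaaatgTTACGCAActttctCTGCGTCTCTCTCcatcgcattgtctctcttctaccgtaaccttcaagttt

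The strongest peak of the whole optimal list was an upstream promoter peak. It lay 267 bp upstream of nipi-3, which encodes a Tribbles-like pseudokinase known in C. elegans to act in immunity and to restrain CEBP-1. Its relative signal was 65.5 in replicate 3 and 61.7 in replicate 7 (63.6 ± 2.65), and it ranked first in both replicates. The next upstream promoter peak, at rank 3 of the whole list, was 567 bp upstream of ftt-2, a 14-3-3 adaptor gene, with 33.8 in replicate 3 and 50.6 in replicate 7 (42.2 ± 11.9), and its summit lay inside the non-coding gene F52D10.7. The third upstream promoter peak, at rank 4 of the list, was 660 bp upstream of tbb-2, a beta-tubulin gene, with 30.2 and 33.7 (32 ± 2.50), inside the non-coding gene C36E8.10. All of these stood far above the typical peak in both replicates, and nipi-3 stood above the other two in each. The SD of ftt-2 was the widest of the 20 strongest, with the higher value in replicate 7.

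Below these came Y37B11A.3 with 28.0 in replicate 3 and 26.5 in replicate 7, in an intron of the neighbouring gene rev-3. The peak 240 bp upstream of gei-4 gave 24.1 and 19.2 and lay in the non-coding gene linc-90. The peak of hat-1, a histone acetyltransferase gene, gave 22.9 and 17.9 at 223 bp upstream, in an intron of M03C11.3. For each of these 3 peaks replicate 3 gave the higher value. The sodium-proton exchanger gene nhx-5 gave 15.7 and 20.2. The gene snb-1, for the synaptic vesicle protein synaptobrevin, gave 17.7 and 17.3, with the smallest SD of the 20 strongest (0.315). The translation genes eef-1A.2, for elongation factor 1 alpha, and rpl-3, for a protein of the large ribosomal subunit, gave 20.7 and 14.2, and 18.2 and 13.9. The neighbours in this order were mostly closer to each other than their spread over replicates: from nhx-5 (18 ± 3.17) to rpl-3 (16 ± 3.08), the means of C01A2.4, C05G5.2, snb-1 and eef-1A.2 all lay between 17.5 and 17.6.

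The rest of the 20 held dyci-1, the dynein intermediate chain gene, with 14.3 and 17.3 at 748 bp upstream. It held mrp-2, for an ABC transporter of the multidrug resistance type, with 14.4 and 15.5 at 786 bp. It also held plrg-1, for a splicing factor, with 12 and 13.4 at 240 bp. The last of the 20, K09F6.10, gave 11.3 and 13.4. The F-box gene fbxc-19 and K09F6.10 have summits in an untranslated exon of a neighbouring gene, so that a peak counted to their promoters lies in another transcript.

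**Figure D1:**
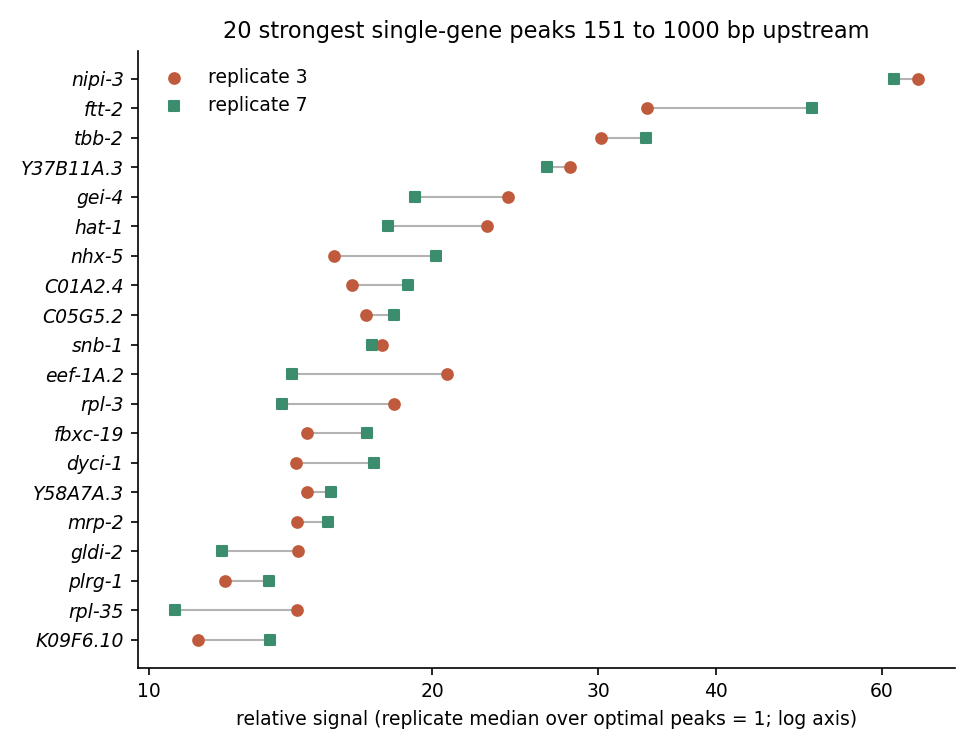
Relative signal of the 20 strongest upstream promoter peaks, in replicate 3 (circles) and replicate 7 (squares), on a log axis where 1 is the median optimal peak of that replicate. nipi-3 stands apart at 65.5 and 61.7, and below tbb-2 the genes follow each other in small steps down to K09F6.10 at 11.3 and 13.4.

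Over all 1242 upstream peaks the median relative signal was 1.204 in replicate 3 and 1.085 in replicate 7. The mean of both could be formed for the 1107 peaks listed in both replicates; 49 peaks had no counterpart in replicate 3 and 87 had none in replicate 7. Its median was 1.16, with quartiles of 0.729 and 2.20. The 671 single-gene peaks nearer the gene, whose summits lay at most 150 bp before or 200 bp after the 5′ end, had lower medians in both replicates, 0.932 and 0.913. The 655 peaks in promoters shared by 2 or more genes had a higher median in replicate 3, 1.52, and a close one in replicate 7, 1.06. Upstream peaks thus had the higher median than those at the 5′ end in each replicate, whereas against shared promoters the order differed between the replicates.

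A peak was called as found in both replicates where each replicate's own 5982 strongest peaks held a summit within 100 bp of it. That was so for 60.2% of all optimal peaks. Of the upstream peaks 810 (65.2%, 62.5 to 67.8%) were found in both, against 56.8% at the 5′ end, a difference of 8.44 percentage points (Newcombe 95% interval 3.86 to 13.0). Against shared promoters the difference was -0.584 points (-5.03 to 3.95). Of the 310 strongest upstream peaks 95.8% were in both, then 91.3% and 58.7% in the next groups, and 15.1% of the 311 weakest. This fall is largely built in. Strength was ranked in the optimal list, made from both replicates, and being found in both is a rank by signal in the same replicates. In 32 peaks neither replicate had such a summit. Across the 1107 peaks the replicates' relative signals had a Spearman rho of 0.706, which is a description over peaks of the same 2 libraries, and 74.9% of peaks were within 2-fold.

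The upstream peaks took a larger part of the top of the list than of its lower ranks. They made up 10 of the 25 strongest optimal peaks (40%, 23.4 to 59.3%), 30.7% of the next 75 and 24.5% of the 200 after those. Past rank 300 they were 28.4% up to rank 1000 and 22.5% of the next 1000. They were 16.1% of those past 4000 and up to 5000 and 18.6% of the last 982. Shared-promoter peaks also thinned, from 19 of the 75 at ranks 26 to 100 to 66 of the last 982. Peaks at the 5′ end were 10 of those 75 and 128 of the last 982.

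Within the upstream range most summits lay on the gene's side. The median distance was 401 bp, the upper quartile was 684 bp, and 60.7% of summits lay within 500 bp. Up to 250 bp there were 310 peaks and in the next 100 bp 233, falling to 112 between 450 and 550 bp and 83 between 850 and 950 bp. These are counts only, not corrected for how much sequence the rule admits at each distance. The tail did not end at the limit: 23 peaks lay in the last 20 bp before it, with a median relative signal of 2.63, and 12 peaks in no promoter lay in the 20 bp beyond the limit of 1 gene, with a median of 1.09. At the inner limit 41 peaks lay in the first 10 bp inside (median 1.29, range 0.416 to 17.6) and 35 in the 10 bp nearer the gene (median 0.809, range 0.453 to 4.23).

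Signal hardly followed distance. The rank correlation of relative signal with distance across the 1107 peaks was -0.0195, given as a description only. Median signal ran from 0.997 to 1.39 over the distance steps in replicate 3 and from 0.966 to 1.42 in replicate 7, and the step with the highest median differed between the replicates, 250 to 350 bp in replicate 3 and 550 to 650 bp in replicate 7.

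**Figure D2:**
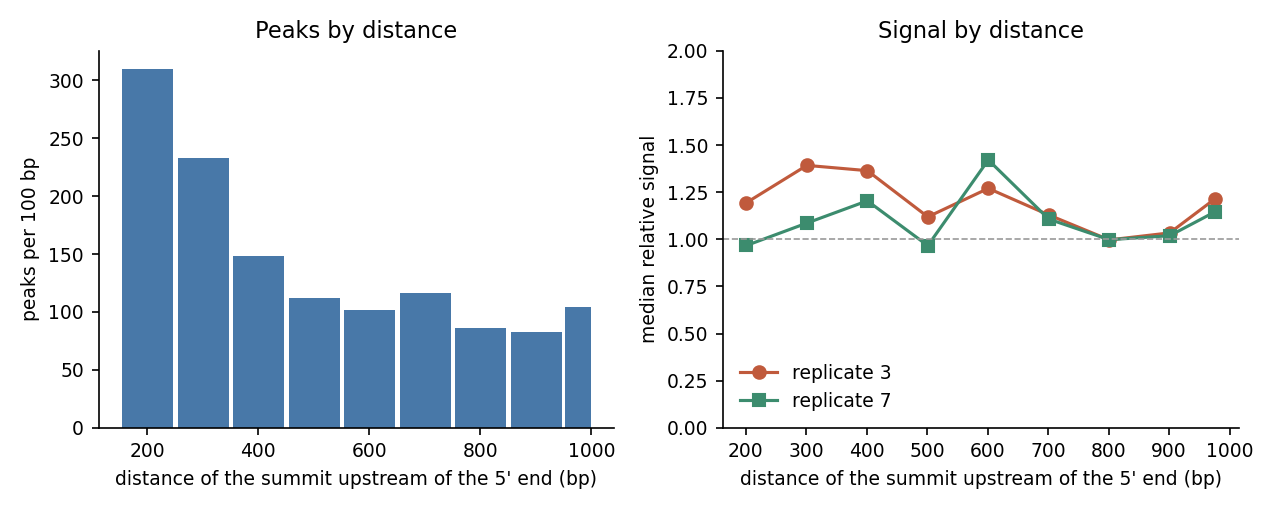
Left, number of upstream promoter peaks per 100 bp of distance between summit and annotated 5′ end (bp), the last bar covering 50 bp and scaled to 100 bp; right, median relative signal of the peaks in each step, in replicate 3 (circles) and replicate 7 (squares), with the median optimal peak as a dashed line. The count falls from 310 in the nearest step to 83 at 850 to 950 bp, while the median signal stays between 0.966 and 1.42.

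Most genes had 1 such summit. In all, 1079 genes had 1, 80 had 2, spaced 199 to 796 bp apart with a median of 209 bp, and lpin-1, which encodes the lipid phosphatase lipin, had 3. The summits of lpin-1 lay 475, 685 and 955 bp upstream. The nearest gave 1.72 in replicate 3 and 2.02 in replicate 7, the middle one was listed only in replicate 3, at 0.138, and the farthest only in replicate 7, at 1.72. The autophagy gene lgg-1 had 1 summit at 152 bp and another at 882 bp. For 92.1% of the 1160 genes the upstream summits were the gene's only promoter peaks, 59 genes (5.09%) also had a single-gene peak nearer the 5′ end, and 34 (2.93%) also had a peak in a shared promoter.

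Chromosome III had the largest share of genes with an upstream peak, 8.03%, followed by X with 7.80% and I with 7.54%. Chromosome IV had 5.33%, II had 4.90% and V, which is rich in chemoreceptor families, had 3.48%. As a share of the optimal peaks on each chromosome, upstream peaks ran from 19.7% on V to 23.0% on X.

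Most of these summits lay between genes. Of the 1242, 951 (76.6%) were in no other annotated gene, 100 (8.05%) in an intron of another protein-coding gene, 83 (6.68%) in a non-coding gene, 76 (6.12%) in an untranslated exon and 30 (2.42%) in a coding exon of another gene, and 2 in a pseudogene. Peaks at the 5′ end lay in no other annotated gene more often, 88.5%, a difference of -11.95 points (-15.2 to -8.48). Their own gene was not counted here, and summits up to 200 bp after the 5′ end can lie inside it. Peaks inside non-coding genes had a median relative signal of 1.40 in replicate 3 and 1.38 in replicate 7, and those inside a coding exon 0.705 and 1.23.

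Small RNA genes were close to some of them. A tRNA gene lay within 200 bp of 29 upstream summits (2.34%) and of 2 of the 671 at the 5′ end, and a tRNA, snoRNA, snRNA or rRNA gene lay within 200 bp of 56 (4.51%) and of 9. The peak 414 bp upstream of the homeobox gene ceh-43, for instance, lay in such a non-coding gene and was listed only in replicate 7, at 0.636. Whether these peaks belong to the small RNA gene or to the promoter was not tested. Of the 177 upstream peaks with TTGCGAAA, 1 lay within that distance of such a gene.

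Genes with upstream peaks had long upstream regions. The nearest protein-coding gene on the upstream side was a median of 1421 bp away for the 1160 genes and 503 bp away for the 652 genes with a peak at the 5′ end. The rule asks that no other gene's promoter holds the summit, which by itself favours long gaps. The upstream neighbour lay on the same strand for 61.0% of genes with an upstream peak and for 72.6% of genes with a peak at the 5′ end.

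The annotated 5′ ends themselves differed. The hexamer TTTCAG, the consensus end of worm splice acceptors, was searched on the gene's strand in the 12 bp before the annotated 5′ end. It was there in 315 of 1160 genes with an upstream peak (27.2%, 24.7 to 29.8%), in 72 of 593 genes with a peak at the 5′ end and none upstream (12.1%, 9.75 to 15.02%), and in 13.6% of all protein-coding genes. The difference between the first pair was 15.01 points (11.2 to 18.6). This check was chosen after the lists had been seen. Among the 20 strongest peaks TTTCAG was absent for ftt-2, Y37B11A.3, gei-4, hat-1, nhx-5, C05G5.2, fbxc-19, dyci-1, gldi-2, plrg-1, rpl-35 and K09F6.10. It was there for nipi-3, tbb-2, snb-1, rpl-3, eef-1A.2, mrp-2 and Y58A7A.3. The last 30 bases before the annotated 5′ end are shown for 4 of them on the gene's strand, with TTTCAG in capitals, and for ftt-2, where it is absent.
snb-1, chrV:6656502-6656531, minus strand: tttaaatttttctaactcgcttcaTTTCAG
eef-1A.2, chrX:7823624-7823653, plus strand: gttcgaaatcctaaaatttatcatTTTCAG
mrp-2, chrX:572702-572731, minus strand: catctccaccgccacacattcaatTTTCAG
Y58A7A.3, chrV:5080904-5080933, minus strand: agtttacacaaagaaaaattacatTTTCAG
ftt-2, chrX:11605420-11605449, minus strand: ctttttgtatcaaactctttatattctcgt
The share with TTTCAG was 29.7% for summits up to 250 bp upstream and 24.4% for those more than 750 bp upstream, with overlapping intervals (24.8 to 35.1% and 19.02 to 30.7%). Signal differed little: median relative signal was 1.33 in replicate 3 and 1.05 in replicate 7 with TTTCAG, and 1.204 and 1.11 without. For a trans-spliced gene the distance to the annotated 5′ end is a distance to a splice site.

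The word TTGCGAAA was the commonest 8-base word at these summits relative to their surroundings. Both strands were searched within 50 bp of the summit. It was found in 177 of 1242 peaks (14.3%, 12.4 to 16.3%), in 0.886% of equal windows 300 bp nearer the gene, in 0.725% of windows 300 bp farther away, and in 0.961% of equal windows placed 401 bp upstream of all 19973 genes. Among 2111 words compared, those next in order, ATTTCGCA in 144 peaks and ATTGCGAA in 126, overlap it. The first that does not was AGACGCAG, in 95 peaks (7.65%), against 0.805% and 1.13% in the flanks and 0.761% in the promoters of all genes. Both words were known from an earlier look at these data. Their shares at the 5′ end, 13.9% and 8.20%, differed from those upstream by 0.391 (-2.97 to 3.56) and -0.548 (-3.23 to 1.90) points, so that no difference between the sets was detectable.

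Strength and TTGCGAAA went together. The word was in 34.5% of the 310 strongest upstream peaks (29.4 to 39.97%), in 10.9% and 6.45% of the next groups and in 5.15% of the 311 weakest. Peaks with the word had a median relative signal of 2.35 in replicate 3 and 3.76 in replicate 7. Those without had 1.13 and 0.951, and 85.3% of peaks with the word were found in both replicates. The contrast was wider in replicate 7 than in replicate 3. AGACGCAG fell less steeply, from 10.7% of the strongest to 4.50% of the weakest.

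Textbook bZIP sites were rare. The C/EBP core, read as TTACGCAA, TTGCGTAA, TTGCGCAA or TTACGTAA, was in 16 peaks (1.29%, 0.795 to 2.08%), against 0.161% on the gene side, 0.483% on the far side and 0.406% in the promoters of all genes. Its symmetrical forms are counted in it: TTGCGCAA was in 8 peaks (0.644%), against 0% and 0.161% in the flanks and 0.140% of all promoters. TTACGTAA, which PAR-type bZIP factors bind, was in 1 (0.0805%), against 0% and 0.161% in the flanks and 0.0601% of all promoters. Of the 16, 10 were among the 310 strongest peaks and 15 were found in both replicates. The composite TGATGCAA was in 14 peaks (1.13%), against 0.161% and 0.644% in the flanks and 0.381% in all promoters. The AP-1 site, read as TGACTCA or as TGAGTCA, was in 25 (2.01%, 1.37 to 2.96%), against 1.45% on the gene side, 0.966% on the far side and 0.881% in all promoters. TGACGTCA was in 11 (0.886%), against 0.403% and 0.644% in the flanks and 0.511% in all promoters.

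The peaks with these sites can be named. The strongest with a C/EBP core was that of eef-1A.2, at 20.7 and 14.2. The next was mrp-2, at 14.4 and 15.5, which has TTGCGCAA and TTGCGAAA in 1 window. F10E7.11 gave 10.1 and 14.0, and C32D5.8 gave 8.44 and 9.21. Those of pdhk-2, for the kinase that restrains pyruvate dehydrogenase, saps-1, for a phosphatase subunit, umps-1, for an enzyme of pyrimidine synthesis, and unc-32, for a subunit of the vacuolar proton pump, are in the same group of 16. The composite site was near the summit of epg-7, a scaffold of selective autophagy, at 6.94 and 4.63, and of acly-1, for ATP citrate lyase, which makes acetyl-CoA for fat synthesis. The composite site of ugt-19, for a glucuronosyl transferase, came with both TTGCGAAA and AGACGCAG, at 3.02 and 3.17.

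Other words searched were not bZIP sites. The E-box CACGTG was in 61 peaks (4.91%), against 1.61% and 1.85% in the flanks and 1.702% of all promoters. The repeat GAGAGAGA was in 64 (5.15%), against 1.37% and 1.45% in the flanks and 0.641% of all promoters. GAGA repeats were 3.17 points (1.40 to 4.77) more frequent upstream than in shared promoters. Against the 5′ end the difference was 1.87 points (-0.0952 to 3.64), and 5.65% of peaks in no protein-coding promoter had a repeat. GATA sites were read as GATAA with A or T before it and A or G after it. They were in 124 peaks (9.98%), close to their flanks (9.18% and 10.1%) and to all promoters (9.23%). Their share was 4.95 points (2.46 to 7.24) above shared promoters, while the difference from the 5′ end was -1.49 points (-4.55 to 1.34). In peaks in no protein-coding promoter it was 10.2%. Unlike TTGCGAAA, GATA sites were least frequent in the strongest upstream peaks, 3.87%, and most frequent in the weakest, 14.5%. The summit windows were richer in G and C than their surroundings, with a median of 43.6% against 35.2% on the gene side and 33.7% on the far side.

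**Figure D3:**
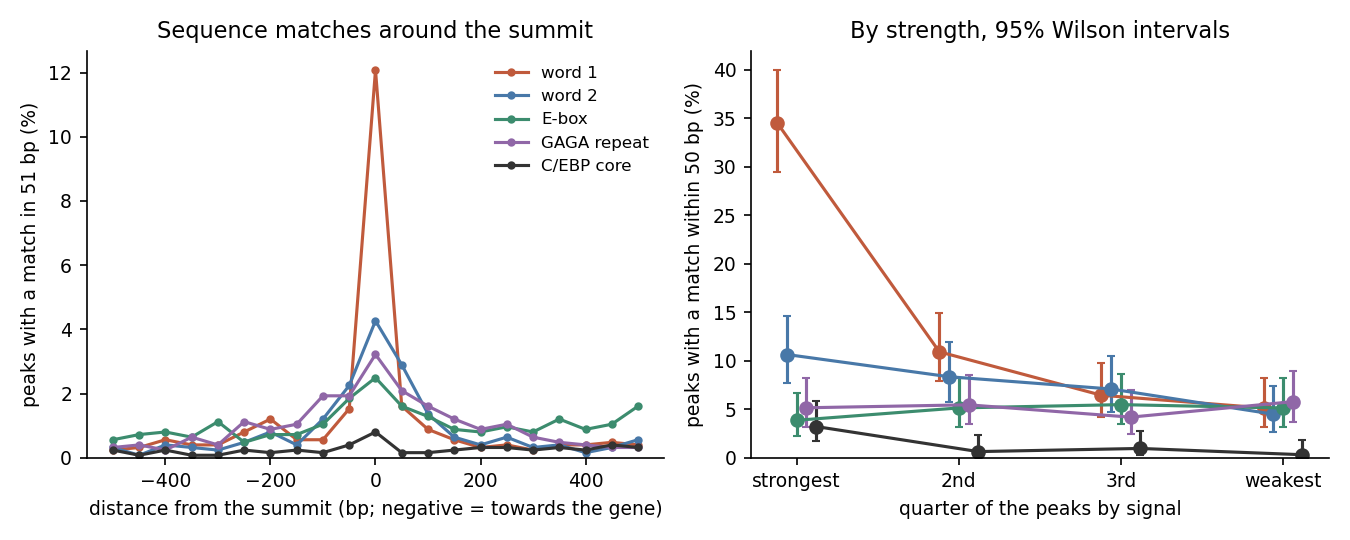
Left, share of the 1242 upstream peaks with a match in 51 bp, by distance from the summit in bp (negative values towards the gene); right, share with a match within 50 bp of the summit, by signal from strongest to weakest, with 95% Wilson intervals. Word 1 is TTGCGAAA and word 2 is AGACGCAG; word 1 rises at the summit and falls from 34.5% of the strongest to 5.15% of the weakest peaks.

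The TTGCGAAA matches sat close to the summit. There were 188 matches in the 177 peaks, 9 peaks having 2 and K09F6.10 having 3 in tandem. The median distance from summit to the middle of the word was 13 bp, and 75% of matches lay within 20 bp. The word read in the gene's direction in 84 (44.7%) and against it in the rest.

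The bases beside the word differed from those beside its copies in the genome. Of the 188 matches 65.4% had A and 26.6% had G just before the word, against 30.8% and 17.3% of 7892 copies in the genome, while T was there in 2.13% against 39.5%. Just after the word 77.1% had T and 12.2% had C, against 31.3% and 12.7%, while A was there in 4.79% against 47.8%. A purine before and a pyrimidine after was thus the usual form, as in the windows of tbb-2, Y37B11A.3, gei-4, snb-1 and mrp-2 above, and it was found in 157 of the 177 peaks. The ftt-2 window has a purine on both sides, and that of rpl-35 a pyrimidine before and a purine after. Of the 157 peaks with the usual form 93 were among the 1000 strongest optimal peaks. So were 10 of the 20 with other neighbours and 178 of the 1065 without the word. Median relative signal in replicates 3 and 7 was 2.352 and 3.76 with the usual form, and 3.035 and 3.056 with other neighbours. Of these 2 groups 85.35% and 85% were found in both replicates.

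The same matches were then counted from the side of the sequence, which is a second view of them and not independent support. In the same range upstream of single genes the genome holds 1099 copies of TTGCGAAA, of which 183 (16.7%, 14.6 to 18.97%) had an optimal summit within 50 bp. With a purine before and a pyrimidine after, 155 of 310 copies had one (50%, 44.5 to 55.5%). With a purine on both sides the count was 14 of 244 (5.74%), with a pyrimidine on both sides 8 of 212 (3.77%), and with a pyrimidine before and a purine after 6 of 333 (1.80%). Each replicate alone gave the same order for the first form against the rest: 41.9% of such copies had a summit among the 5982 strongest peaks of replicate 3 and 56.5% among those of replicate 7, and no other form passed 6.60% in either. The split by neighbouring bases was chosen after these values had been seen, on the same peaks.

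Among the single pairs, A before with T after gave 95 of 155 copies (61.3%, 53.4 to 68.6%), G with T gave 40 of 73 (54.8%), A with C 14 of 50 (28.0%) and G with C 6 of 32 (18.8%). T before with A after gave 1 of 211 (0.474%). The share was similar along the promoter: 53.4% of purine-pyrimidine copies up to 400 bp upstream, 46.8% between 400 and 700 bp and 49.4% beyond 700 bp had a summit, with overlapping intervals. In the rest of the genome it was 635 of 1609 (39.5%, 37.1 to 41.9%), and the other forms had 3.73%, 3.51% and 0.724%. Of the 155 purine-pyrimidine copies upstream of genes with no optimal summit, 13 had a summit among the 30000 listed peaks of replicate 3, 37 in replicate 7, 6 in both and 111 in neither.

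For comparison, 10.2% of 1026 upstream copies of AGACGCAG had an optimal summit within 50 bp, 7.18% of 2590 GAGA repeats, 2.98% of 2212 E-boxes, 2.50% of 641 C/EBP cores (1.54 to 4.02%) and 2.20% of 592 composite sites. A copy without a summit says nothing about whether CEBP-1 can bind it.

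**Figure D4:**
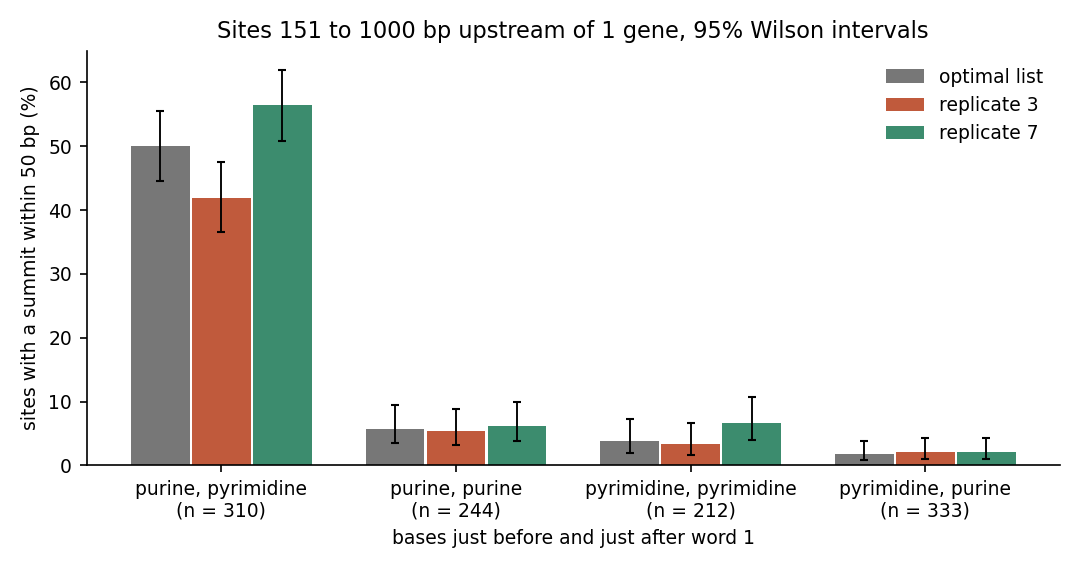
Share of genomic copies of TTGCGAAA (word 1), in the same range upstream of 1 gene, with a summit within 50 bp in the optimal list and among the 5982 strongest peaks of each replicate, by the bases just before and just after the word; bars start at 0 and carry 95% Wilson intervals. Purine before and pyrimidine after stands at 41.9 to 56.5%, and every other form is at or below 6.60%.

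Genes with upstream peaks were then read by function, in 22 lists made from gene names with earlier results of these data known. Counts stand beside the 5.81% of all protein-coding genes with an upstream peak, and no list was tested. Of all protein-coding genes 6.41% had a peak in a shared promoter and 3.26% a single-gene peak at the 5′ end. Translation genes had the highest share: 18 of 78 cytosolic ribosomal protein genes (23.1%, 15.1 to 33.6%) had an upstream peak, while 45 (57.7%) had a peak in a shared promoter and 3 a single-gene peak at the 5′ end. Most of the 18 were far weaker than the leading pair. Besides rpl-3 and rpl-35, which gave 14.4 in replicate 3 and 10.7 in replicate 7, the strongest was rps-24 with 3.42 and 2.45, and the median over the list was 1.63 in replicate 3 and 0.956 in replicate 7. Their summits lay a median of 330 bp upstream. Only 1 of 32 tRNA synthetase genes (fars-3, 1.17 and 0.737) and 6 of 70 mitochondrial ribosomal protein genes (8.57%) had one, against 11 and 14 with a peak in a shared promoter. For the tRNA synthetase genes the count was 0 from the peaks of replicate 3 alone and 2 from those of replicate 7 alone.

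The next highest share was in a signalling list. Of 24 genes of insulin and TOR signalling 5 (20.8%, 9.25 to 40.5%) had an upstream peak. They were ftt-2, rsks-1, for the S6 kinase, with 5.94 and 5.47, akt-2, for a kinase below the insulin receptor, with 2.58 and 1.76, daf-16, for the FOXO factor that insulin signalling restrains, with 1.74 and 1.198, and raga-1, for a GTPase that activates TOR, with 0.113 and 0.720. These run from the second strongest upstream peak to one below the typical level in both replicates. Of 27 genes in the DLK-1, KGB-1 and PMK-1 kinase cascades 4 (14.8%, 5.92 to 32.5%) had one. Beside nipi-3 they were svh-2, for a receptor tyrosine kinase of axon regrowth, with 2.77 and 3.70, mak-2, for a kinase that acts below DLK-1, with 2.15 and 1.47, and mlk-1, for a kinase above KGB-1, with 1.42 and 0.554. The genes cebp-1 and cebp-2 themselves had no peak in this range.

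Of 80 genes of autophagy and the lysosome 14 (17.5%, 10.7 to 27.3%) had an upstream peak, against 8 with a peak in a shared promoter. The Atg8-type genes lgg-1 and lgg-2 gave 5.05 in replicate 3 and 7.66 in replicate 7, and 4.98 and 1.51. With them were epg-7, at 6.94 and 4.63, epg-4, at 2.61 and 2.65, atg-9, for a membrane protein of the early autophagosome, at 2.76 and 1.40, and 4 subunit genes of the vacuolar proton pump named vha together with unc-32. Of these pump genes vha-13 was the strongest, at 2.56 and 1.79. Replicate 7 gave the higher value for lgg-1 and replicate 3 for lgg-2.

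Membrane traffic followed with 16 of 107 genes (14.95%, 9.42 to 22.9%), and 15 of these had a peak found in both replicates. The strongest were snb-1, sec-16A.2, which marks sites where cargo leaves the endoplasmic reticulum, with 5.27 and 8.18, and vps-4, for the ATPase that recycles ESCRT complexes, with 5.72 and 4.065. A further ESCRT group, vps-60, vps-37, vps-28 and vps-36, gave means of 3.32, 2.19, 1.81 and 1.31. The endosomal GTPase genes rab-5 and rab-10 were near the typical level, at 1.25 and 1.05. Of 64 cytoskeleton genes 8 (12.5%) had an upstream peak. They included tbb-2, act-2, for an actin, with 1.93 and 2.79, and dnc-1, for the dynactin subunit that binds dynein, with 2.68 and 1.37. The actin genes act-1, act-2 and act-3 are near-identical copies, so reads from them may have been split between them.

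Lipid metabolism had 12 of 93 genes (12.9%, 7.54 to 21.2%), mostly weak: only 3 were found in both replicates, and the median was 0.988 in replicate 3 and 0.551 in replicate 7. From the peaks of replicate 7 alone the count was 7. The exception to the weak signal was lbp-9, for a lipid-binding protein, with 4.68 and 6.22. The acyl-CoA synthetase gene acs-2 gave 2.21 and 0.759, the yolk protein gene vit-2 gave 1.52 and 0.512, and sbp-1, for the SREBP factor of fat synthesis, gave 0.609 and 0.221. Of 185 detoxification genes 10 (5.41%) had an upstream peak, led by cyp-43A1 (3.33 and 3.20), ugt-19 and gst-27 (1.90 and 4.18). That share is near the 5.81% of all genes.

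Most transcription factor lists were near or little above the share of all genes, and homeobox genes were below it. Of 274 nuclear hormone receptor genes 14 (5.11%) had a single-gene peak at the 5′ end and 5 (1.825%) a peak in a shared promoter. An upstream peak was found for 18 (6.57%, 4.20 to 10.1%). The strongest were nhr-154, with 5.80 and 7.70, and nhr-117, with 4.12 and 5.92, and both have TTGCGAAA at the summit. The regulator of fat use nhr-49 gave 2.29 and 1.24. Of 28 bZIP genes 2 had one, zip-2, an infection-response factor, with 0.452 and 0.659, and crh-1, the worm CREB, with 0.409 and 0.652. Neither was found in both replicates, and the zip-2 summit lay in a coding exon of ceeh-1. Among other factor families ztf-7 gave 6.76 and 2.93 and hlh-11 gave 3.19 and 1.48, and 3 of 90 homeobox genes (3.33%, 1.14 to 9.35%) had a peak.

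Of 65 chaperone genes 5 (7.69%) had an upstream peak, and 19 (29.2%) had one in a shared promoter. The 5 were found in both replicates. They were led by hsp-1, the constitutive Hsp70, with 7.14 and 6.14, and dnj-9, for a J-domain protein, with 4.79 and 2.12. The hsp-90 peak gave 1.31 and 3.28 and lay in a coding exon of C47E8.4. Of 33 proteasome genes 4 had an upstream peak and 15 a peak in a shared promoter. The 4 were weak, pas-5 being the highest of those listed in both replicates, at 1.05 and 0.840. In replicate 3 rpt-6 gave 1.054 and rpn-13 gave 0.712, and neither had a counterpart in replicate 7. The count of proteasome genes was 5 from the peaks of replicate 3 alone and 2 from those of replicate 7 alone.

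Genes of sensory and secreted families had few. Upstream peaks were found for 7 of 1276 chemoreceptor genes (0.549%, 0.266 to 1.13%), 7 of 358 immune effector genes (1.955%), 2 of 140 neuropeptide and insulin genes, 5 of 191 ion channel and transmitter receptor genes (2.62%) and 0 of 174 collagen genes. A count of 0 allows a share of up to 1.72% when taken as 3 counts of the total, and the Wilson upper limit is 2.16%. From the peaks of replicate 7 alone the count was 3 for ion channel and transmitter receptor genes and 2 for collagen genes, and from those of replicate 3 alone it was 1 for collagen genes. Among these few, ins-39 gave 6.55 in replicate 3 and 2.15 in replicate 7, and unc-2, for a neuronal calcium channel, gave 1.49 and 2.41 with TTGCGAAA at its summit. Of 81 histone genes 5 had a peak, at a median of 0.277 in replicate 3 and 0.920 in replicate 7. Histone genes are repeated in near-identical copies, so where their reads were placed is uncertain. The count was 1 gene from the peaks of replicate 3 alone and 11 from those of replicate 7 alone.

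**Figure D5:**
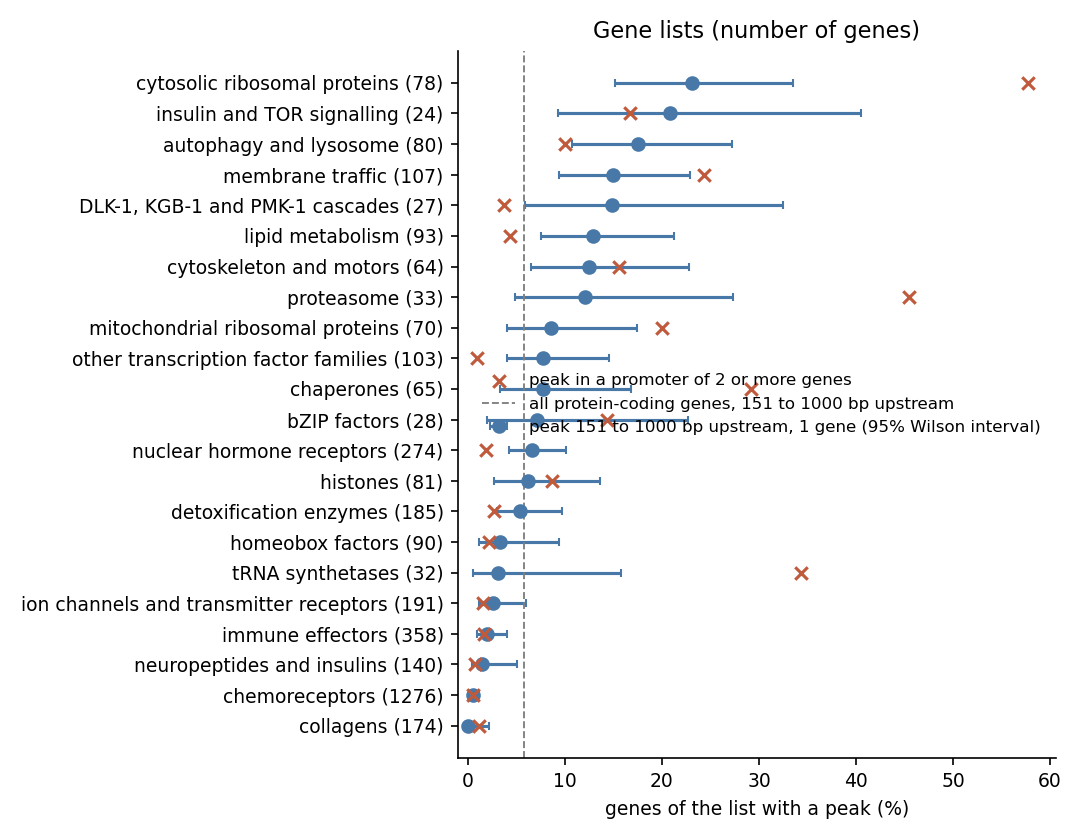
Share of the genes in each of 22 lists (number of genes in brackets) with an upstream promoter peak (circles, 95% Wilson intervals) and with a peak in a promoter of 2 or more genes (crosses); the dashed line is the 5.81% of all protein-coding genes. Cytosolic ribosomal proteins stand highest for both, at 23.1% and 57.7%, and chemoreceptors and collagens are lowest for upstream peaks, at 0.549% and 0%.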

How the data were processed

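The authors deposited ce11 peak lists in narrowPeak format: 30000 peaks and background for each replicate, and the optimal list thresholded on the irreproducible discovery rate (IDR), derived from the alignments and 1 control file per the text files deposited with them. Each peak carries the authors' signal value, used only within its list, and a deposited −log10 q-value that is capped and was not used for any result. Sources used here do not name the aligner, the peak caller or the IDR threshold, and the lists give no depth.

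From these, summits were placed on WBcel235, Ensembl release 115 genes with Python 3.11.15, NumPy 2.4.6 and SciPy 1.17.1. The last peak on each chromosome ended within its length. Shares carry 95% Wilson intervals, and differences between sets of peaks or genes carry Newcombe intervals. Motifs were sought on both strands in 101 bp. Sequences were read from the WBcel235 RefSeq genome. Assignment and motif search were tested on simulated data. The genes named were those of the 20 strongest peaks, up to 3 per list, those with 3 or more summits, the strongest with a bZIP word, and cebp-1, cebp-2 and nipi-3; others were chosen after their values were seen. The members and lists were chosen with earlier results of these data known. Alternatives were the list of each replicate, the stronger 50% of peaks, 1 summit per interval, other distance limits, genes of any biotype, peaks away from small RNA genes, and other match distances and windows.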

Additional observations from a re-analysis of the deposited data

How the results depend on the processing

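No paired analysis was possible because there is 1 group of 2 replicates. The strongest peaks of a single replicate were also used in place of the optimal list, with 1 replicate left out each time. The upstream peaks then numbered 1220 to 1292 and their genes 1131 to 1217. Their median distance ran from 381.5 to 430.5 bp. The TTGCGAAA share ran from 11.3 to 16.6% (replicate 3 alone lower, replicate 7 alone higher) and the C/EBP core share from 1.24 to 1.39%. The number of genes in the lists ran from 146 to 170, beside 160 in the optimal list. For the median relative signal the optimal peaks were kept, and it was 1.204 from replicate 3 alone and 1.085 from replicate 7 alone. With the stronger 50% of peaks there were 726 upstream peaks at 698 genes, the median relative signal was 1.87, 90.9% were found in both replicates, 20.5% had TTGCGAAA and 97 genes of the lists had a peak. An upper limit of 500 bp left 754 peaks at 736 genes at a median of 279.5 bp. Lower limits just past 100 and 250 bp gave medians of 347.5 and 522 bp. The share found in both replicates was 55.6% with a match within 50 bp, 68.8% within 200 bp and 89.1% over all listed peaks. These follow from what each setting keeps. Of 603 values recomputed, 518 were labelled unmoved and 85 moved. The latter included 7 of 205 signals of named peaks, 12 of 99 shares of other words and 47 of 198 gene list counts. Counts were not held to an error: 972 upstream peaks, with exactly 1 gene of any biotype, were labelled unmoved beside 1242. For named peaks the label says little. With 2 replicates, either one alone always lies within the SD of their mean, so leaving 1 out could not move it. Settings that only choose peaks left the signal of a kept summit unchanged, and a named peak that a setting dropped was not counted. With exactly 1 gene of any biotype ftt-2, tbb-2, fbxc-19 and dyci-1 dropped out, as another gene's promoter also held their summits. Lists of few genes moved most, histones from 0 to 11 genes, and lipid metabolism had 4 genes among the stronger 50% of peaks and 7 with replicate 7 alone. No read counts were given, so what depth limits could not be stated.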
